A study of Mus musculus with 9 samples.

Results

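Tcstv1, Tcstv3, Trim43a, Trim43b, and Trim43c belong to a pair of small gene families whose transcripts mark the 2-cell stage of the mouse embryo. They were chosen as the rows whose name begins with Tcstv or Trim43, which gave 5 of the 25965 genes in the table. Dppa2 and Dppa4, small chromatin-associated proteins of pluripotent and early embryonic cells, were each depleted from E14 mouse embryonic stem cells (ESCs) of the 129/Ola background by siRNA, and cells given a control siRNA served for comparison. Cells were grown in serum and LIF without feeders, transfected at 0 h and again at 48 h, and collected for RNA at 96 h. Each treatment had 3 polyA RNA libraries, labelled rep3A, rep3B, and rep3C and called A, B, and C here. The labels name no deletion or transgene for these libraries, while the study's text places the knockdowns in ESCs that carry MERVL::tdTomato and Zscan4c::eGFP reporters of the 2C-like state. Each siRNA was a pool of several siRNAs per the study's methods. The study calls its RNA-seq samples of a treatment biological replicates, without saying which step separated them. Neither it nor the labels say whether the shared rep3 means parallel samples of a single experiment. The p-values measure the spread between these libraries and, if so, not that between experiments.

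Zygotic genome activation is the first burst of transcription from the embryo's own genome, and in mice its major wave falls at the 2-cell stage. In serum cultures a small, changing fraction of ESCs switches on the same transcripts for a time, and such cells are called 2C-like. Tcstv genes encode short proteins found in the 2-cell embryo and are arranged as near-copies on chromosome 13. Trim43 genes encode proteins of the tripartite motif (TRIM) family, many of which are RING-type ubiquitin ligases, and lie apart from each other on chromosome 9. In bulk RNA, fewer 2C-like cells and less RNA in each such cell cannot be told apart.

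All values are deposited log2 expression values on the GRCm38 assembly, not divided by transcript length, unless another scale is named. A gene without reads sat at -4.50 to -4.47, depending on the library, and reads behind low values were counted by ranking the different values that occur in a library. The libraries held an estimated 17.3 to 39.9 Mreads on genes. With the slope taken at lower reads the estimates ran from 13.9 to 41.0 Mreads. Intervals and floors based on reads cover counting error only. For the targeted genes, in the order control, Dppa2, and Dppa4 siRNA, log2 expression of Dppa2 was 7.12 ± 0.17, 3.64 ± 0.25, and 7.07 ± 0.09 (SD, n = 3 each). That of Dppa4 was 7.06 ± 0.05, 7.12 ± 0.05, and 6.13 ± 0.03 (SD, n = 3 each). These are RNA levels. By western blot the study found less Dppa2 protein with Dppa4 siRNA as well, at unchanged Dppa2 mRNA. It also found a smaller loss of Dppa4 protein with Dppa2 siRNA.

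The rows were first placed on the annotation, because the names of a pair of rows are exchanged. The row named Trim43c lies on the plus strand of chromosome 9 from 88581036 to 88588819, where GENCODE and RefSeq place Trim43a (ENSMUSG00000090693). The row named Trim43a, from 88839164 to 88848190 on the same strand, is their Trim43c (ENSMUSG00000067399). Trim43b (ENSMUSG00000079162), on the minus strand from 89084624 to 89092835, carries its usual name. Each of these transcripts has 7 exons and a coding region of 1335 to 1338 bases. Names below are those of the table. Tcstv1 (ENSMUSG00000096284) is a single exon of 1280 bases on the minus strand of chromosome 13, from 119893467 to 119894746, with a coding region of 513 bases. Tcstv3 (ENSMUSG00000095821) lies on the plus strand from 120317567 to 120318076, and its listed transcript of 510 bases is a single exon with a coding region of 507 bases.

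The sequences show how far the copies can be separated by reads of 50 bases. Coding bases 101 to 250 are given below for Tcstv1 and Tcstv3 and for 2 further genes of the chromosome 13 cluster that have the same coding length as Tcstv1. Capitals mark the 11 positions at which these 4 sequences differ, and sequences were read 5′ to 3′ from the GENCODE transcripts of GRCm38.
Tcstv1: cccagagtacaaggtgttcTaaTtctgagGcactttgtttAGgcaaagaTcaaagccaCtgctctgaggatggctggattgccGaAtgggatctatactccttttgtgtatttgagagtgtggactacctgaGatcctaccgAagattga
Tcstv3: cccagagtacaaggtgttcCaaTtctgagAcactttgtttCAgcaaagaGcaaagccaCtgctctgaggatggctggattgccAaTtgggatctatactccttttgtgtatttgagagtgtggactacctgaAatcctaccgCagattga
AC231112.2: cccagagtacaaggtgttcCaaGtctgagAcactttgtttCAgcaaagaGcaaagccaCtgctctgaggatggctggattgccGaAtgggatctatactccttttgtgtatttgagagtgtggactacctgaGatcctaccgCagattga
AF067061: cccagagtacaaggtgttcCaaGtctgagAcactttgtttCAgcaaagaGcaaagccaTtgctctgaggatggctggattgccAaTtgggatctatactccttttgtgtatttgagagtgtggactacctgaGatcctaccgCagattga
Over the whole coding region Tcstv1 and Tcstv3 matched at 479 of 507 aligned bases (94.5%). Of the 50-base stretches of the Tcstv1 transcript, 207 of 1231 (16.8%) also occurred in a transcript of another gene, and for Tcstv3 it was 151 of 461 (32.8%).

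For the Trim43 genes, coding bases 61 to 270 are given, with capitals at the 15 positions where the 3 copies differ.
Trim43a: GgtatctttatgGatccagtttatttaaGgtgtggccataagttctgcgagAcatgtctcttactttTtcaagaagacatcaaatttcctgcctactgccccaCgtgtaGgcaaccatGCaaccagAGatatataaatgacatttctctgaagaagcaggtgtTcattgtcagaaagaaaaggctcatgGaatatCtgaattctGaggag
Trim43b: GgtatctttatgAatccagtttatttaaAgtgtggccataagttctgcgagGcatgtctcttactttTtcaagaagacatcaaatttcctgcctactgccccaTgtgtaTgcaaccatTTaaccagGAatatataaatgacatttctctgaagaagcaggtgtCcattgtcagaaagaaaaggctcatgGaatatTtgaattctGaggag
Trim43c: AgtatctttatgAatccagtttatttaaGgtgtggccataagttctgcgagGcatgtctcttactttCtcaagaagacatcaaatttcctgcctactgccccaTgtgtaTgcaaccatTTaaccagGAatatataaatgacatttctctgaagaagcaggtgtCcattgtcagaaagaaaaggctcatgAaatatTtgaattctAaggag
The coding regions of Trim43a and Trim43b matched at 1306 of 1335 aligned bases (97.8%), those of Trim43b and Trim43c at 1311 of 1332 (98.4%), and those of Trim43a and Trim43c at 1293 of 1335 (96.9%). Shared 50-base stretches made up 42.4% of the Trim43a transcript, 48.8% of Trim43b, and 48.0% of Trim43c. Reads on such stretches fit more than 1 copy, and how the mapping dealt with them was not given in the sources used here, so the values of single copies are less certain than those of each family.

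Tcstv3 was the most abundant member in control siRNA-treated cells and was almost absent after either knockdown. Its log2 expression in control libraries A, B, and C was 1.39, 0.97, and 2.66, from 85, 111, and 159 reads. With Dppa2 siRNA it was -4.05, -4.48, and -2.95, from 1, 0, and 2 reads. With Dppa4 siRNA it was -4.25, -4.49, and -4.49, from 1, 0, and 0 reads. All 6 knockdown libraries lay below all 3 control libraries, and control library C was the highest. The group means were 1.67 ± 0.88, -3.83 ± 0.79, and -4.41 ± 0.14 (SD, n = 3 each). The log2 change from control was -5.50 (SE 0.55, adjusted p = 0.00073 by limma with Benjamini-Hochberg adjustment) with Dppa2 siRNA and -6.08 (SE 0.55, adjusted p = 0.00043 by limma) with Dppa4 siRNA. As a share of the control reads, corrected for depth, 1.12% (exact 95% interval 0.230% to 3.30%, Clopper-Pearson) of Tcstv3 remained in the Dppa2 knockdown and 0.306% (0.00774% to 1.72%) in the Dppa4 knockdown.

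Tcstv1 was lower than Tcstv3 in control cells and had no read in any of the 6 knockdown libraries. The control values were -1.85, -0.99, and -0.94, from 10, 31, and 14 reads, with a mean of -1.26 ± 0.51 (SD, n = 3). Against the floor of 3 reads over a group, with the control reads taken without error, Tcstv1 was at least 13.9-fold lower with Dppa2 siRNA and at least 16.9-fold lower with Dppa4 siRNA. The fitted log2 changes were -3.22 (SE 0.47, adjusted p = 0.0069 by limma) and -3.23 (SE 0.47, adjusted p = 0.0071 by limma). They depend on the value given to 0 reads and are no bounds.

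A gene was called when limma gave an adjusted p below 0.05 over the 14601 tested genes and it also passed an intensity difference filter, which compares a change with those of genes of like expression, at p below 0.05. Tcstv3 met both criteria with either siRNA, as did Tcstv1, whose filter p of 0.043 and 0.036 lay close to the threshold. Its call was lost, by the filter and not by limma, without control replicate C or without any 1 of the 3 Dppa2 siRNA libraries in the Dppa2 comparison, where the filter p was 0.054 to 0.102 and the change -3.22 to -3.06. It was also lost without Dppa4 siRNA replicate A or B in the Dppa4 comparison, where the filter p was 0.053 and 0.051. Of all tested genes, 1.58% were called lower with Dppa2 siRNA and 1.65% with Dppa4 siRNA, and 0.397% and 0.39% were called higher. For genes in which every knockdown library lay below every control library the shares were 8.2% and 10.2%. A gene was tested if it exceeded -2 on the log2 scale in 3 or more libraries, and Tcstv1, Tcstv3, and Trim43c, the 3 of the 5 members that were tested, reached this in all 3 control libraries and in no knockdown library. A gene that enters the test through its control libraries alone has to be lower in the others, so the number of members called is not by itself evidence.

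**Figure D1:**
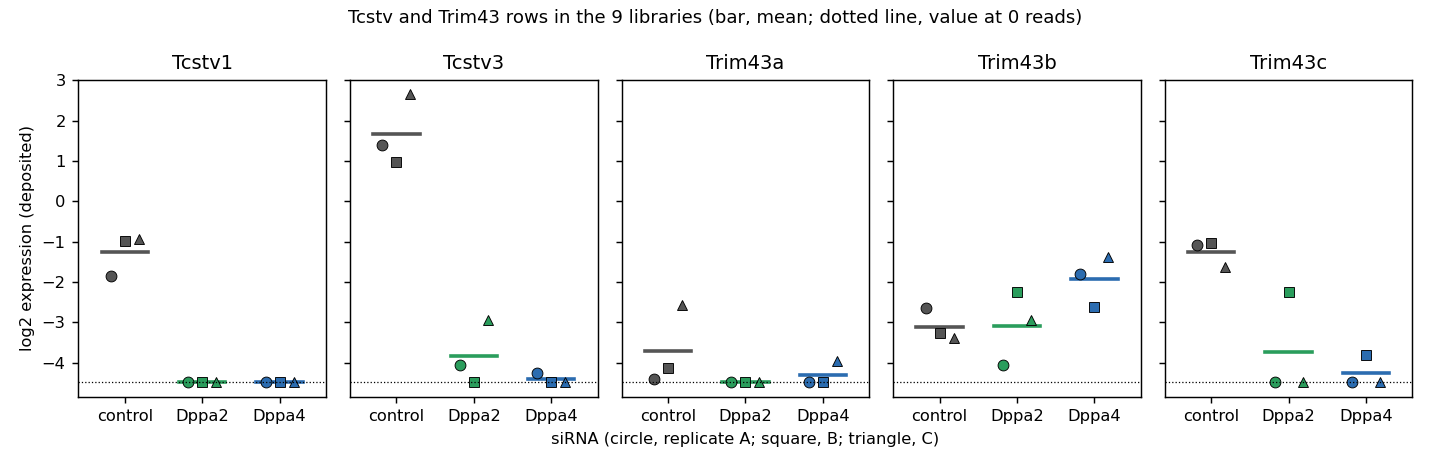
Deposited log2 expression of each of the 5 members in the 9 libraries, by siRNA, with the mean of each treatment as a bar and the value of a gene without reads as a dotted line. Tcstv1 and Tcstv3 fall to or near the dotted line with both siRNAs, Trim43c does so in 4 of 6 knockdown libraries, Trim43a is low throughout, and Trim43b is highest with Dppa4 siRNA.

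Trim43c, the most abundant of the 3 Trim43 rows, was lower in every knockdown library than in any control library, but on few reads. Control values were -1.09, -1.04, and -1.62, from 16, 30, and 9 reads. In Dppa2 siRNA-treated cells libraries A and C had no read and library B had 4 reads (-2.25). In Dppa4 siRNA-treated cells libraries A and C again had none and library B had 2 (-3.80). Means were -1.25 ± 0.32, -3.74 ± 1.29, and -4.26 ± 0.39 (SD, n = 3 each). Dppa4 siRNA changed Trim43c by -3.01 on the log2 scale (SE 0.66, adjusted p = 0.043 by limma), which met both criteria with a filter value close to the threshold. That call did not hold with 8 of the 9 libraries left out in turn, with adjusted p of 0.015 to 0.154 by limma over the 9 fits. It held only without Dppa2 siRNA replicate B, the library with 4 reads. With Dppa2 siRNA the change was -2.48 (SE 0.66, adjusted p = 0.088 by limma), which did not pass. The depth-corrected share of control reads was 9.63% (exact 95% interval 2.53% to 26.1%) in the Dppa2 knockdown and 3.96% (0.467% to 15.0%) in the Dppa4 knockdown.

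Trim43a and Trim43b did not reach the minimum for the test, and their changes come from a fit of the 17165 genes with a read in at least 3 libraries, added after the data were seen, in which 1.58% of genes were called lower with Dppa2 siRNA and 1.62% with Dppa4 siRNA. Trim43a had 1, 4, and 5 reads in the control libraries (-4.41, -4.14, and -2.57), none with Dppa2 siRNA, and 0, 0, and 1 read with Dppa4 siRNA. The changes were -0.78 (SE 0.46, adjusted p = 0.51 by limma) and -0.61 (SE 0.46, adjusted p = 0.58 by limma). Against the group floor of 3 reads, with the 10 control reads taken without error, Trim43a was at least 2.52-fold lower with Dppa2 siRNA. With the counting error of the control reads included, the exact interval (Clopper-Pearson) reached up to 59.1% of control, a weaker bound. A loss of the size seen for Tcstv3 could not be measured from 10 control reads.

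Trim43b stood apart from the other 4 rows in that its reads were not fewer in both knockdowns. It had 6, 8, and 3 reads with control siRNA (-2.66, -3.27, and -3.40), 1, 4, and 2 reads with Dppa2 siRNA (-4.05, -2.25, and -2.95), and 9, 5, and 8 reads with Dppa4 siRNA (-1.79, -2.63, and -1.39). On the deposited scale the 3 Dppa4 siRNA libraries lay above the 3 control libraries, by a log2 difference of 1.17 (SE 0.50, unadjusted p = 0.046 and adjusted p = 0.27 by limma), which did not pass. In RPM, the reads per Mread of a library's estimated depth, the groups overlapped, at 0.155 to 0.243 for control and 0.175 to 0.374 for Dppa4 siRNA. Its depth-corrected share of control reads was 141% (exact 95% interval 71.4% to 282%) with Dppa4 siRNA and 54.5% (19.1% to 138%) with Dppa2 siRNA. The log2 change with Dppa2 siRNA was 0.03 (SE 0.50, adjusted p = 0.99 by limma). Its sign turned when any 1 of 4 libraries was left out. At nearly the same RPM the deposited value differed between libraries. Trim43b was at -3.27 with 0.201 RPM in control library B and at -2.25 with 0.196 RPM in Dppa2 siRNA library B. Log2 changes of rows with so few reads therefore need not match their changes in RPM. Some of its shared stretches lie in transcripts of unrelated genes, so part of its reads may not be specific to the Trim43 genes, and their part in its values was not tested.

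Sums over each family do not depend on how reads were divided between the rows summed, but the Tcstv sum still depends on reads shared with the near-copies on chromosome 13 described below. Tcstv1 and Tcstv3 together had 3.85, 3.56, and 8.91 RPM in control libraries A, B, and C. They had 0.0389, 0, and 0.116 with Dppa2 siRNA and 0.0368, 0, and 0 with Dppa4 siRNA. Means were 5.44 ± 3.01, 0.0516 ± 0.0589, and 0.0123 ± 0.0212 RPM (SD, n = 3 each), or 0.948% and 0.225% of the control mean. These shares rest on 3 reads and 1 read, and without Dppa2 siRNA replicate C or Dppa4 siRNA replicate A they became 0.358% and 0%. Without Dppa2 siRNA replicate B the first was 1.42%, and without Dppa4 siRNA replicate B or C the second was 0.338%.

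For the 3 Trim43 rows the sums were 0.931, 1.05, and 0.875 RPM with control siRNA, 0.0389, 0.391, and 0.116 with Dppa2 siRNA, and 0.331, 0.244, and 0.421 with Dppa4 siRNA. Control libraries lay above all others, with means of 0.953 ± 0.091, 0.182 ± 0.185, and 0.332 ± 0.0883 (SD, n = 3 each). The knockdown means were 19.1% and 34.8% of control, and the first was 8.11% without Dppa2 siRNA replicate B. Within the family the shares of reads differed between treatments. Trim43c held 55 of 82 reads (67.1%) in control cells, and Trim43b held 7 of 11 (63.6%) with Dppa2 siRNA and 22 of 25 (88.0%) with Dppa4 siRNA.

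**Figure D2:**
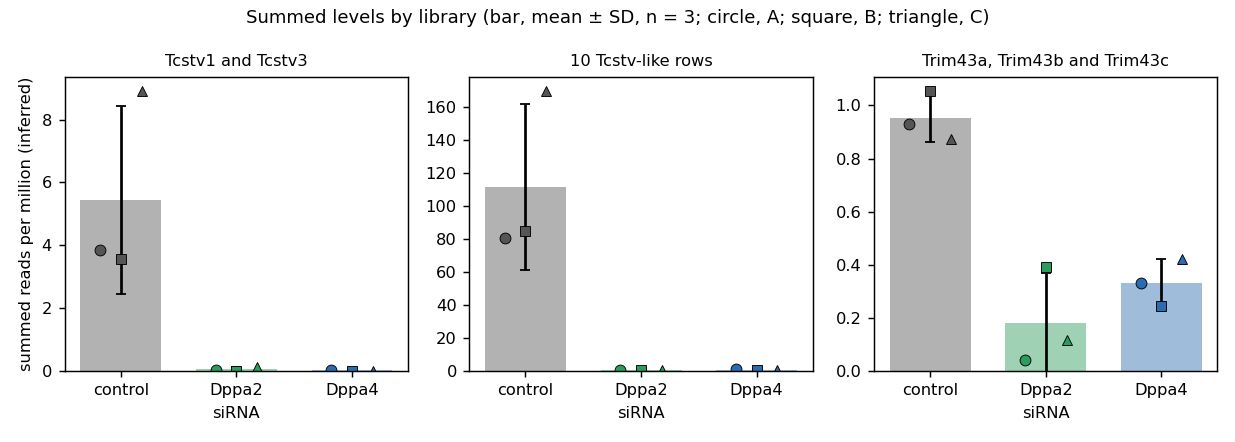
Summed RPM, from inferred reads, of Tcstv1 and Tcstv3, of the 10 further chromosome 13 genes with a coding sequence like that of Tcstv3, and of the 3 Trim43 rows, by siRNA. Bars are means with SD (n = 3, cut at 0) and points are libraries. The first and second panel drop to near 0 with both siRNAs, while the Trim43 sum keeps 19.1% and 34.8% of the control mean.

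Levels were compared between members as RPM per kb of transcript. In control cells Tcstv3 was at 9.42 ± 5.78, Tcstv1 at 0.496 ± 0.157, Trim43c at 0.314 ± 0.0739, Trim43b at 0.0881 ± 0.0196, and Trim43a at 0.0667 ± 0.0563 RPM per kb (SD, n = 3 each). The libraries of Tcstv3 (5.46 to 16.1) did not overlap those of any other member. Tcstv1 (0.316 to 0.608) and Trim43c (0.234 to 0.380) overlapped, as did Trim43b (0.0683 to 0.107) and Trim43a (0.0203 to 0.129). With Dppa2 siRNA Tcstv3 was still the highest on average at 0.101 ± 0.116 RPM per kb, with Trim43b at 0.0516 ± 0.0347, and the libraries of the pair overlapped. With Dppa4 siRNA Trim43b was the highest at 0.130 ± 0.0464 and Tcstv3 was at 0.0240 ± 0.0416 (SD, n = 3 each).

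The response to the 2 siRNAs was compared directly, and both knockdowns share the same control libraries. By the study's protein measurements the 2 treatments are not separate depletions of Dppa2 and of Dppa4. No member differed between Dppa4 and Dppa2 siRNA, a test that 0.0205% of all tested genes passed by limma's adjusted p alone. The log2 difference, Dppa4 minus Dppa2 siRNA, was -0.58 for Tcstv3 (95% interval -1.81 to 0.65, adjusted p = 0.93 by limma) and -0.52 for Trim43c (-2.02 to 0.97, adjusted p = 0.96 by limma). For Tcstv1, at 0 reads in both, no difference could be measured. Trim43a gave 0.16 (-0.88 to 1.21, adjusted p = 0.999 by limma). Trim43b gave 1.14 (0.0036 to 2.29, unadjusted p = 0.049 and adjusted p = 0.74 by limma). These intervals are wide enough to hold differences of more than 1.5-fold either way for Tcstv3, Trim43a, and Trim43c.

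The surroundings of the members were examined within 500 kb on either side. On chromosome 13 this held 26 other rows, of which 10 had a coding sequence identical to that of Tcstv3 in 68.2% to 94.7% of alignment columns. The 11 other coding rows that were aligned had 19.2% to 47.1%, and a limit of 60% was set between the groups after both were seen, from sequence alone. The 10 rows are called Tcstv-like here. Most carry clone names, and GENCODE gives AC231112.2 as Gm21761, AC238940.3 as Gm20767, and AC238940.1 as Gm21818.

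In control cells the Tcstv-like rows held far more reads than the named members, and with either siRNA nearly none were left. Their sum was 80.4, 84.5, and 170 RPM in control libraries A, B, and C, while the Dppa2 siRNA libraries held 0.506 to 0.752 and the Dppa4 siRNA libraries 0.515 to 1.03. The knockdown means were 0.596% and 0.671% of the control mean. All 12 near-copies together, Tcstv1 and Tcstv3 included, had 9056 reads with control siRNA, 44 with Dppa2 siRNA, and 60 with Dppa4 siRNA. AC231112.2 alone took 5789 of the 9056 control reads of the whole cluster (63.9%), against 355 (3.92%) for Tcstv3 and 55 (0.607%) for Tcstv1. AC231112.2 kept 32 reads with Dppa2 siRNA and 53 with Dppa4 siRNA, or 0.732% (exact 95% interval 0.500% to 1.03%) and 0.996% (0.745% to 1.30%) of control. AF067061 (415 control reads) and BC147527 (258) had none in any knockdown library. The same floor of 3 reads was used for both, again with the control reads taken without error. On these terms AF067061 was at least 104.5-fold and 127-fold lower with Dppa2 and Dppa4 siRNA. BC147527 was at least 64.9-fold and 79.1-fold lower in the same order.

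Of the 10 Tcstv-like rows, 5 were tested and these were called lower with both siRNAs, with changes of -6.94 to -5.69 and of -7.49 to -5.70. All but AC231112.2 entered the test through the control libraries alone. AC231112.2 was at -1.04 ± 0.52 with Dppa2 siRNA and -0.665 ± 0.29 with Dppa4 siRNA (SD, n = 3 each). These values lie above the minimum of -2, so its test did not hang on its control libraries. Of the 5 rows, 2 were called when the minimum was raised to a log2 of 0. AC238940.3 had the largest decreases (-6.94, SE 0.57, adjusted p = 0.00024, and -7.49, SE 0.57, adjusted p = 0.00017, by limma), followed by AC231112.2 (-6.70) and AF067061 (-6.34) with Dppa2 siRNA and by AC238940.1 (-6.81) and AF067061 (-6.35) with Dppa4 siRNA. The remaining 5 had 25 to 226 reads over the control libraries. With either siRNA 4 of them (AC231112.1, AC239678.2, and both rows named AF067063) had no read, and B020031M17Rik had 0 and 2 reads. B020031M17Rik also had the widest control spread, from 2 to 191 reads. In the fit of genes with a read in at least 3 libraries, AC231112.1 and AC239678.2 were called lower with both siRNAs and the AF067063 rows and B020031M17Rik were not. AC231112.1 and AC239678.2 had reads in control libraries alone, so they could only come out lower, and their calls are not by themselves evidence. In that fit 1.58% and 1.62% of all genes were called lower with Dppa2 and Dppa4 siRNA.

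Of the other 16 rows around the Tcstv genes, 9 were tested and none of these was called in either direction. Their median changes were 0.04 with Dppa2 siRNA and -0.10 with Dppa4 siRNA, against 0.02 and 0.03 over all tested genes. AC241593.1 changed by 0.36 with Dppa2 siRNA (SE 0.33, adjusted p = 0.75 by limma) and Gm7120 by 0.55 with Dppa4 siRNA (SE 0.46, adjusted p = 0.62 by limma), and GENCODE counts both to Tmem267. Hmgcs1, an enzyme of cholesterol synthesis, changed by 0.31 (SE 0.20, adjusted p = 0.57 by limma) and -0.08 (SE 0.20, adjusted p = 0.91 by limma). The largest decrease was that of AC239678.1, a processed pseudogene on the strand opposite to BC147527 and within that gene, at -1.84 (SE 0.96, adjusted p = 0.42 by limma) and -1.90 (SE 0.96, adjusted p = 0.35 by limma), with 40 to 721 reads in the control libraries. E130304F04Rik, which GENCODE names Nim1k, changed by -1.51 with Dppa4 siRNA (SE 0.60, adjusted p = 0.23 by limma).

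**Figure D3:**
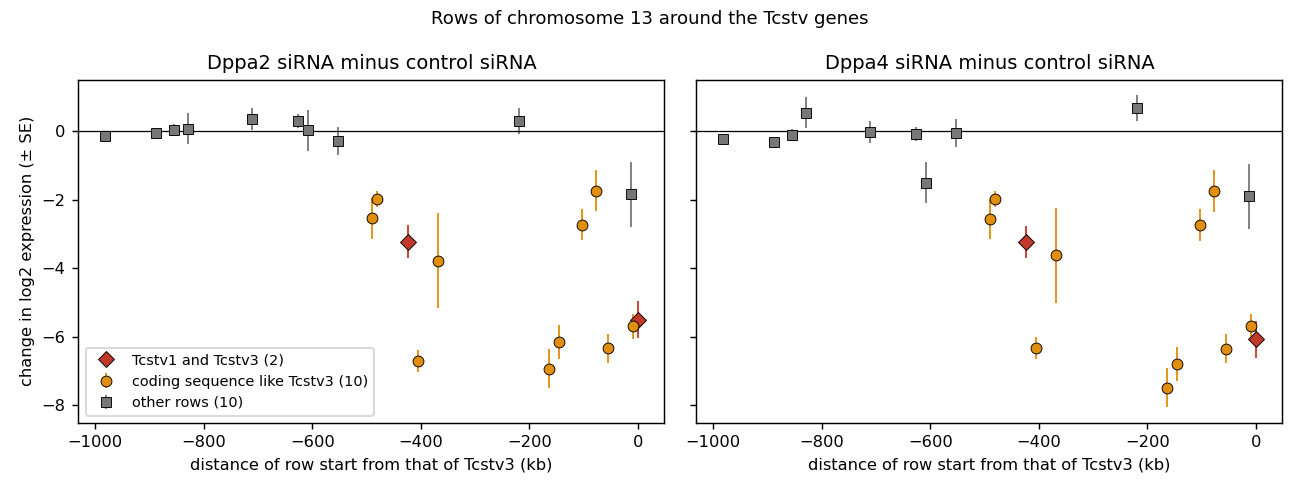
Change in log2 expression (± SE) with Dppa2 siRNA and with Dppa4 siRNA for the 22 rows near the Tcstv genes that had a read in at least 3 libraries, against the distance of their start from that of Tcstv3 in kb. Tcstv1, Tcstv3, and the 10 Tcstv-like rows lie between -1.73 and -7.49, while the other rows lie between -1.90 and 0.67.

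Around the Trim43 genes 13 other rows lay within 500 kb, and none of the 7 tested was called with either siRNA. Their median changes were -0.05 and 0.24. Gm2382, between Trim43c and Trim43a, had the largest change, 1.15 with Dppa4 siRNA (SE 0.37, adjusted p = 0.14 by limma), where it had 68 to 139 reads against 33 to 87 with control siRNA. Nt5e, an ectonucleotidase of the cell surface, changed by 0.38 and 0.71 (adjusted p = 0.35 and 0.071 by limma). The 5 rows Bcl2a1a, Bcl2a1b, Bcl2a1d, Gm10634, and 4930579C12Rik had no read in any library. In this region Trim43c, at -2.48 and -3.01, was the row with the largest decrease.

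Among the other Trim genes that were tested, a single gene had no read left in either knockdown. The table holds 64 further Trim genes, of which 41 were tested. With each siRNA 2 of the 41 were called lower and 0 higher. Over all tested genes 1.58% and 1.65% were called lower, and 0.397% and 0.39% higher, with Dppa2 and Dppa4 siRNA. Median changes of the 41 were -0.01 and -0.06. The genes called with each siRNA were Trim52 and Trim36. Trim52 had 96 reads in control cells and none in any knockdown library, with log2 expression of -0.515 ± 0.997 (SD, n = 3) in control and changes of -3.97 (SE 0.55, adjusted p = 0.0053 by limma) and -3.98 (SE 0.55, adjusted p = 0.0057 by limma). Trim36, a ubiquitin ligase, was at 2.42 ± 0.26, 1.38 ± 0.26, and 1.29 ± 0.22 with control, Dppa2, and Dppa4 siRNA (SD, n = 3 each) and fell by 1.04 and by 1.13 on the log2 scale (adjusted p = 0.025 and 0.017 by limma). The calls of Trim52 held with each library left out, but neither its calls nor those of Trim36 held on the log2(linear value + 1) scale (Trim52 adjusted p = 0.053 and 0.052 by limma). Trim52 exceeded the minimum of -2 in control libraries alone, at -1.45 to 0.54, so it could only come out lower. Its calls are not by themselves evidence. Trim30d, which was too low for the test, had 20 control reads and none in the knockdown libraries, with changes of -1.59 and -1.60 (adjusted p = 0.037 and 0.036 by limma in the fit of 17165 genes) that did not pass the intensity filter. Calls of Trim36 did not hold without control replicate A or B with either siRNA, nor without any 1 of the Dppa2 siRNA libraries or Dppa4 siRNA replicate B in the Dppa2 comparison (changes of -1.19 to -0.90) or Dppa4 siRNA replicate A or B in the Dppa4 comparison (-1.15 to -0.99), and were also lost with the replicate letter as a block (adjusted p = 0.099 and 0.073 by limma). Trim28, the co-repressor that silences endogenous retroviruses in ESCs, was at 11.23 ± 0.05 in control cells and changed by -0.09 and 0.13 (adjusted p = 0.76 and 0.51 by limma). Trim71, a regulator of stem cell differentiation, varied from 1.18 to 5.42 between control libraries and changed by -0.72 and -0.09 (adjusted p = 0.89 and 0.98 by limma).

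Most 2-cell genes of other families also fell with both siRNAs. A list of 27 such genes, written with earlier results of these data known, had 20 rows in the table, of which 18 were tested. With Dppa2 siRNA 17 of these were called lower and with Dppa4 siRNA 18, and 0 were called higher. With the minimum raised to a log2 of 0 these were 10 and 9 of 15. The background was 1.58% and 1.65% of all tested genes, but all 18 exceeded -2 in each control library and so entered the test by their control level, and the count is not by itself evidence. Median changes were -6.21 and -6.39, against 0.02 and 0.03 over all tested genes. With Dppa2 siRNA the largest decreases were those of Gm5662 (-7.93), Gm2022 (-7.80), and Gm12794 (-7.76), and with Dppa4 siRNA those of Gm5662 (-7.80), Gm2016 (-7.57), and Zscan4d (-7.38), a gene of the Zscan4 family of telomere-associated zinc finger proteins. Tdpoz3 was not called with Dppa2 siRNA (change -3.52, adjusted p = 0.0040 by limma) and missed the intensity filter narrowly, Tdpoz1 had 7 control reads and was not tested, and Tdpoz5 had no read. The changes of Tcstv3 (-5.50 and -6.08) were nearer to these medians than those of Tcstv1 (-3.22 and -3.23) and Trim43c (-2.48 and -3.01). Tcstv1 was at 0 reads in the knockdowns, where no larger change can be measured. Trim43c fell from a control mean of -1.25 to -3.74 and -4.26, near the value of 0 reads, so its low control level also limits the change that can be measured.

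**Figure D4:**
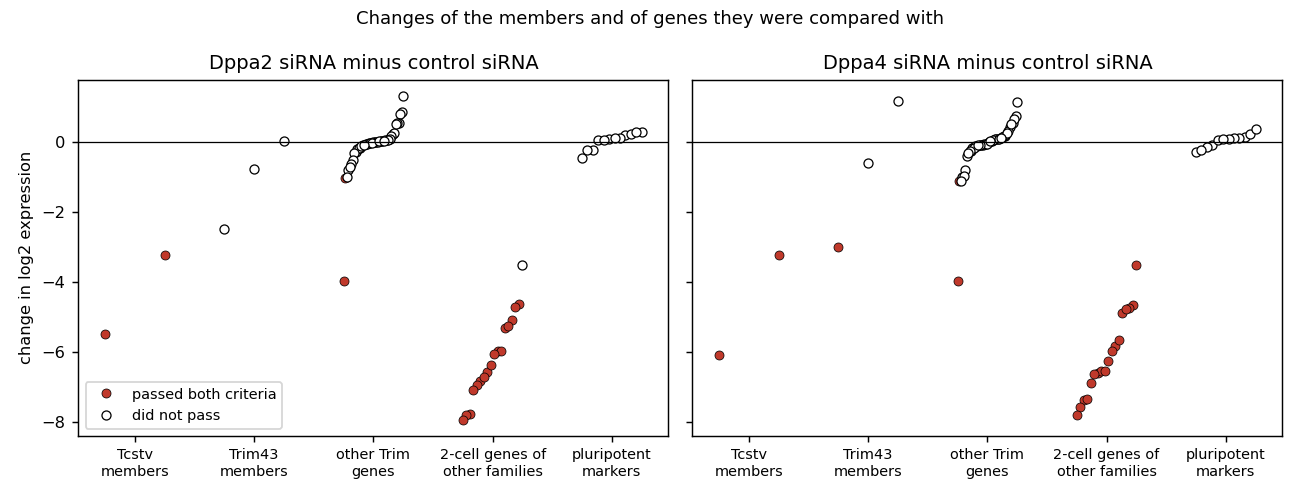
Change in log2 expression with Dppa2 siRNA and with Dppa4 siRNA for the Tcstv and Trim43 members, the 41 tested other Trim genes, the 18 tested 2-cell genes of other families, and 12 pluripotency markers, with filled points for genes that passed both criteria. The 2-cell genes lie between -7.93 and -3.52, most Trim genes and all pluripotency markers lie near 0, and among the Trim genes Trim52 stands alone near -4.

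Genes were then ordered by the likeness of their profile over the 9 libraries to that of each tested member, as a description. Nearest to Tcstv1 were Gm5699 (Pearson r = 0.9985), Cpb2 (0.997), a carboxypeptidase of blood clotting, and Gm14742 (0.996), and each was at the value of 0 reads with both siRNAs. Nearest to Tcstv3 were Sp110 (0.994), a nuclear body protein, Gm2016 (0.987), and CT485612.1 (0.986). Nearest to Trim43c were Slc25a31 (0.982), a mitochondrial ADP/ATP carrier of germ cells, Stk38l (0.965), a protein kinase, and Prickle1 (0.964), a planar cell polarity protein. Tcstv1 and Tcstv3 had an r of 0.972 with each other, and Trim43c had 0.865 with Tcstv1 and 0.818 with Tcstv3. The points share the fall from control to knockdown, and for genes near 0 reads they share the same lowest value. The control libraries alone did not rank the members alike. Tcstv3 was highest and Trim43c lowest in library C.

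The labelled cell type was checked against markers of ESCs and of cells that such cultures may hold. All 12 pluripotency markers had reads in every treatment and 0 were called with either siRNA, with Pou5f1 at 10.19 and Nanog at 8.26 in control cells. Their summed linear level was 3733 to 4466 in control libraries, 4242 to 4431 in Dppa2 knockdown libraries, and 4188 to 4354 in Dppa4 knockdown libraries. Of 8 fibroblast genes, Lum and Postn had no read, and the summed level was 8.80 to 10.4, 10.6 to 12.6, and 10.1 to 13.3 in the same order. Pdgfrb was called higher with both siRNAs (1.08 and 0.90). Of 8 primitive endoderm genes 0 were called, with summed levels of 74.7 to 100.1, 83.3 to 87.7, and 88.1 to 95.2, a sum made up mostly of Lama1 (-0.12 and -0.17) and Col4a1 (-0.23 and 0.04). The 8 genes had median changes of 0.39 and 0.997, above the 0.02 and 0.03 of all tested genes, and 6 and 7 of 8 had values above 0. Gata6 changed by 0.75 and 1.44 (adjusted p = 0.16 and 0.013 by limma, and not past the intensity filter), Sox17 by 0.74 and 1.20 (adjusted p = 0.18 and 0.035 by limma, and not past the filter), Sox7 by 1.60 and 2.02 (adjusted p = 0.17 and 0.079 by limma), Gata4 by 0.57 and 1.22 (adjusted p = 0.58 and 0.13 by limma), and Pdgfra by 0.02 and 0.80 (adjusted p = 0.99 and 0.084 by limma). The part of these cells in the losses of the Tcstv and Trim43 transcripts was not tested.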

How the data were processed

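PolyA RNA from 9 libraries (control, Dppa2, and Dppa4 siRNA, 3 each) was read from one end over 50 bases. The authors used Trim Galore (0.4.5 per the labels) for trimming and HISAT2 2.0.5 for mapping to GRCm38, quantitated mRNA probes strand-specifically in SeqMonk, matched cumulative distributions, and deposited normalized log2 values for 25965 genes. These are not counts, so limma 3.58.1 (R 4.3.3, intensity trend, treatment as the only term, all 9 libraries) took the place of the authors' DESeq2. Genes with log2 above -2 in at least 3 libraries were tested (14601), and the fit was tested on simulated data. Called genes also passed an intensity difference filter rebuilt from the 1% of genes nearest in expression. Reads up to 300 were inferred as the rank of distinct values in a library and above that from their slope on linear values between 100 and 300 reads, which also gave the depth. Identities came from global alignment (Biopython 1.88) of GENCODE M21 transcripts, and shared 50-base stretches from all its transcripts. Tables and intervals used pandas 2.3.3 and scipy 1.17.1 under Python 3.11.15, and figures matplotlib 3.10.9.

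The members and lists were chosen with earlier results of these data known. Named were all members, Dppa2, Dppa4, the 3 genes with the highest Pearson r to each tested member, genes within 500 kb whose call differed or that were among the 3 largest changes in either direction, the 3 largest decreases and any gene not lowered among 2-cell genes of other families, and Trim28, Trim71, and called genes among the other Trim genes. The remaining Tcstv-like rows, AC239678.1, E130304F04Rik, Trim30d, the marker genes, and the unread rows near Trim43 were named after their values were seen. Other filters, scalings, and fits and leaving out each library were tried as alternatives. No deposited column of values was left unused.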

Additional observations from a re-analysis of the deposited data

Results flagged for a closer look

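Among the results, a pair of targeted genes differed between the knockdowns by a direct test. Dppa2 was higher with Dppa4 siRNA than with Dppa2 siRNA by 3.43 on the log2 scale (SE 0.14, adjusted p = 2.4e-05 by limma), and Dppa4 changed by -0.985 in the same direction of comparison (SE 0.08, adjusted p = 0.0035 by limma). None of the 5 Tcstv and Trim43 members differed in that way. Groups of 3 libraries were too small for a test of single libraries that stand apart.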

How the results depend on the processing

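Tcstv3 kept its direction in every fit and its call in all but one setting. With only genes above a log2 of 0 in at least 3 libraries tested, its changes were -5.50 and -6.08 and the intensity filter no longer passed, and the cause was not tested. With each library left out, Tcstv3 changed by -5.94 to -5.01 and by -6.43 to -5.59, Tcstv1 by -3.51 to -3.06 and by -3.52 to -3.07, and Trim43c by -3.23 to -2.11 and by -3.24 to -2.89, with Dppa2 and Dppa4 siRNA. Trim43c passed with Dppa2 siRNA on the log2(linear value + 1) scale (-0.38, adjusted p = 0.04996 by limma). With Dppa4 siRNA it no longer passed after quantile normalization (-2.998), without a filter (-3.01), or with the replicate letter as a block (-3.01, adjusted p = 0.069 by limma). Deviations of same-letter libraries correlated between -0.585 and 0.367, which showed no pairing by letter. Those of different-letter libraries ran from -0.658 (control C with Dppa2 siRNA B) to 0.692 (control A with Dppa2 siRNA B). Whether libraries share a batch under another matching was not tested, and the block on letters does not account for it. Changes near 0 turned sign with a library left out: Trim43b with Dppa2 siRNA (-0.39 to 0.51), and, for Dppa4 minus Dppa2 siRNA, Trim43a (-0.011 to 0.25) and Trim43c (-0.90 to 0.22). The levels of the sums varied from 0.358% to 1.42% and 0% to 0.338% of control for Tcstv1 and Tcstv3, 8.11% to 26.6% and 30.2% to 39.4% for Trim43, and 0.523% to 0.805% and 0.544% to 0.907% for the Tcstv-like rows, whose highest values were those without control siRNA replicate C.

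Counts over all genes moved more. Lowered genes were 230 with Dppa2 siRNA (346 without a filter, 139 with the stricter filter, 176 to 209 with a library left out) and 241 with Dppa4 siRNA (149 with the stricter filter, 158 with the block, 144 to 243 with a library left out). Raised genes were 58 with Dppa2 siRNA (20 with the block, 12 with only the treatments compared, 118 without a filter, 170 by limma alone, 13 to 46 with a library left out) and 57 with Dppa4 siRNA (20, 21, and 160 with the block, only the treatments compared, and limma alone, 10 to 58 with a library left out). Genes differing between the knockdowns were 3 (1 with the block, 5 without a filter, 1 to 3 with a library left out). On the log2(linear value + 1) scale 0 of the other Trim genes were called lower, against 2. Depth limits Trim43a and Trim43b most, with at most 9 reads in any library.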
